A study of Mus musculus with 2 samples.

Results

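The genes described here are 52 genes of the TGF-β and BMP pathways, chosen by name among 21887 protein-coding genes of the mouse gene table. They comprised 3 TGF-β ligands (Tgfb1 to Tgfb3), 3 TGF-β receptors (Tgfbr1 to Tgfbr3), 19 ligands of the BMP and GDF families with myostatin (Mstn) and the anti-Müllerian hormone (Amh), 6 activin and nodal ligands with Inha and both Lefty genes, 9 BMP and activin receptors, 8 Smads and 4 secreted antagonists (Nog, Chrd, Grem1 and Fst). Rib cartilage of newborn CD1 mice, all wild type, gave the primary chondrocytes, which were untreated and kept overnight in culture. Chromatin immunoprecipitation (ChIP) for the histone mark H3K27me3, the trimethylated form of histone H3 at lysine 27, gave 1 library of 17237574 filtered tags, and input DNA of the same kind of cells gave 1 library of 17004082 filtered tags. The libraries were told apart by their titles, because their antibody tags name the ChIP library as input and the input library as H3K27me3. The data analysed here hold no replicate, so no value has a spread between samples, and the intervals below cover counting error only. The labels do not say how many animals were pooled.

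Ligands of this superfamily are secreted dimers that bring together type I and type II receptor serine kinases. TGF-β, activin and nodal receptors act mainly through Smad2 and Smad3, BMP receptors act through Smad1, Smad5 and Smad9, and Smad4 is the partner of both groups, while Smad6 and Smad7 inhibit signalling. In cartilage, BMP and GDF ligands take part in condensation, joint formation and growth plate activity, and TGF-β restrains hypertrophic differentiation. H3K27me3 is deposited by Polycomb repressive complex 2 (PRC2) and marks genes kept silent, often genes for signals and transcription factors of other lineages. A gene is called marked below when a peak, a region of ChIP enrichment over input, was listed with it in the authors' annotation, which reaches 5 kb beyond the gene ends.

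Promoters are shown first for Bmp4 and Nodal, whose 5′ ends lay under the widest such peaks of the BMP and GDF ligands and of the activin and nodal ligands, and for Tgfbr1 and Tgfbr2, receptor genes that the study examined and that had no peak. Gdf7, whose promoter fell between peaks, was added after its values were seen. Each runs 5′ to 3′ on the strand of the gene, from 250 bases before to 50 bases after the start, is taken from RefSeq (GRCm38.p6), and has its CpG dinucleotides in capitals. Bmp4 lies at chr14:46390620-46390919 (minus strand), Nodal at chr10:61417722-61418021 (plus), Gdf7 at chr12:8301905-8302204 (minus), Tgfbr1 at chr4:47352972-47353271 (plus) and Tgfbr2 at chr9:116175314-116175613 (minus).
Bmp4: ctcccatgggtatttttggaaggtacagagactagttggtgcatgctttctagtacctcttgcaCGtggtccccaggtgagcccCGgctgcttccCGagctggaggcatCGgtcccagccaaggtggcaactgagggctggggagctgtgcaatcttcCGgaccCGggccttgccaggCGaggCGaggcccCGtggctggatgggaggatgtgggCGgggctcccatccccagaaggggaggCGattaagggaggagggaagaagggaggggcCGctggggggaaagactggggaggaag
Nodal: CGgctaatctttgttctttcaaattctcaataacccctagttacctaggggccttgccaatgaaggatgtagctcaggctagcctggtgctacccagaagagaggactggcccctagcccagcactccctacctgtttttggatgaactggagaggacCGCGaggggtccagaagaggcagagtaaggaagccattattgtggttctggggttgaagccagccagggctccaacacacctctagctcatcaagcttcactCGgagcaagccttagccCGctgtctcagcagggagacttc
Gdf7: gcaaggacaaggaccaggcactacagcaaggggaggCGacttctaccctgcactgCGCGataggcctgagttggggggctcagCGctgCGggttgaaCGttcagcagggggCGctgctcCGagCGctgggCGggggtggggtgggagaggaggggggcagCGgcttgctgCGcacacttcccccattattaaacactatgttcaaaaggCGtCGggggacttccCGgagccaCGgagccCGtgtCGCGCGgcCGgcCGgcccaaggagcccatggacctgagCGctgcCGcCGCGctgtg
Tgfbr1: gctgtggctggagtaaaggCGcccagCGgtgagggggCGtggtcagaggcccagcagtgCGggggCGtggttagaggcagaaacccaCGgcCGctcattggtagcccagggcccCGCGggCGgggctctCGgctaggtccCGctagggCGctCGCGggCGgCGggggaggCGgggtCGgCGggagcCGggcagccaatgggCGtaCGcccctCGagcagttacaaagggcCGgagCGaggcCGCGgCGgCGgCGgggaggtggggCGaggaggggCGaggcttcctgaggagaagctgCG
Tgfbr2: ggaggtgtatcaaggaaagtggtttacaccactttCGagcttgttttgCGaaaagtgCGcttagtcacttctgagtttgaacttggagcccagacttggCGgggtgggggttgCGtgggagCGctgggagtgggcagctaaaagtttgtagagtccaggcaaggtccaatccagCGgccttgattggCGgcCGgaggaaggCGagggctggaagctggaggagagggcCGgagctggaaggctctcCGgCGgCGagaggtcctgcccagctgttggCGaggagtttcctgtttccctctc
All 300 bases lay under a peak at Bmp4 and Nodal and 0 at the other three. The promoters held 12 CpG at Bmp4, 5 at Nodal, 26 at Gdf7, 34 at Tgfbr1 and 15 at Tgfbr2. The median over 17492 protein-coding genes with a promoter in the table was 15. The promoters shown were picked partly by their peaks, so their CpG counts do not compare covered with uncovered promoters.

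Of the 52 genes, 11 were marked (21.2%, 95% Wilson interval 12.2 to 34.0%), against 20.7% of all protein-coding genes. As a whole the pathway was thus as often marked as the genome. The marked genes were the ligands Bmp3, Bmp4, Gdf5, Gdf6, Gdf7, Inhbb, Nodal, Lefty1 and Lefty2, the receptor Acvr1c and the antagonist Fst. Lefty1 and Lefty2 are counted with the ligands here, although they encode inhibitors of nodal signalling. A peak over the gene body was found at 9 of the 52 (17.3%, against 14.2% of all genes), and a peak over the 5′ end at 3 (5.77%, against 4.45%). A limit of 0.05 on a peak's mean q-value left 8 marked genes (15.4%, against 16.4%), and a limit of 0.01 left 4 (7.69%, against 5.91%). A peak of 3.5-fold enrichment or more was found at 1 gene, Gdf6 (1.92%, against 5.35%), as was a peak of 10 kb or more (1.92%, against 2.63%). The shares lay on both sides of their backgrounds.

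The shares by role are set against the 20.7% of all protein-coding genes. Of 28 ligands, 9 were marked (32.1%, 17.9 to 50.7%), and all 9 were ligands other than TGF-β, where the count was 9 of 25 (36.0%, 20.2 to 55.5%). Among the activin and nodal ligands 4 of 6 were marked (66.7%, 30.0 to 90.3%), and among the BMP and GDF ligands 5 of 19 (26.3%, 11.8 to 48.8%). The count of 4 includes the inhibitor genes Lefty1 and Lefty2. With these and Inha counted as antagonists, 2 activin and nodal ligands and 3 antagonists were marked. Limits of 0.05 and 0.01 on the mean q-value left 2 and 0 of the 6 marked, and 5 and 3 of the 19. Of 20 receptors and Smads, which receive and relay the signal, 1 was marked (5.0%, 0.888 to 23.6%). The intervals of ligands and of receptors with Smads overlapped, and the difference was not tested. Both intervals held the 20.7%, as did those of every single class but the activin and nodal ligands. The antagonists had 1 marked gene of 4, and the Smads had 0 of 8, which allows a share of up to 32.4%. The 2 smallest classes, TGF-β ligands and TGF-β receptors, had 0 marked genes of 3 each, which allows up to 56.1%. In the 2 other ligand families most like these, 16 of 19 Wnt genes (84.2%, 62.4 to 94.5%) and 14 of 22 Fgf genes (63.6%, 43.0 to 80.3%) were marked. The intervals of the Wnt genes and of the BMP and GDF ligands did not overlap, and those of the Fgf genes did.

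**Figure D1:**
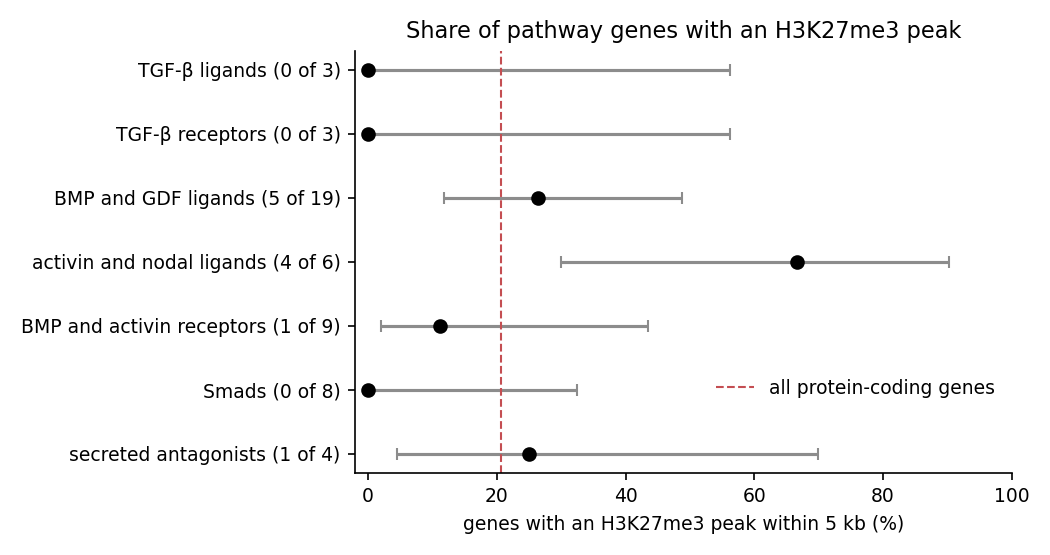
Share of genes with an H3K27me3 peak within 5 kb in each class of the pathway, in percent. Points give the share and bars the 95% Wilson interval, which covers counting error only, and the dashed line is the 20.7% of all protein-coding genes. The activin and nodal ligands stand highest at 66.7%, and TGF-β ligands, TGF-β receptors and Smads lie at 0. The 66.7% includes the inhibitor genes Lefty1 and Lefty2, whose peaks had mean q-values above 0.05.

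The 11 marked genes carried 21 peaks, and none of the 21 was joined to a second gene symbol in the authors' annotation. Gdf6 had 5 peaks, Gdf7 had 3, Bmp3, Gdf5, Inhbb and Fst had 2 each, and the other five genes had 1. The peaks were 800 bp to 14.9 kb wide, with a median of 2.58 kb, against a median of 1.27 kb over all 19359 peaks. Of the 21, 17 were wider than that median and 4 exceeded 5 kb. A wide peak is more likely to reach a gene, and the peaks joined to any protein-coding gene had a median of 1.43 kb. The fold enrichment, which is the ChIP pileup over the input background, ran from 2.96 to 3.67 with a median of 3.25, against 3.16 over all peaks. The mean q-values ran from 0.00439 to 0.0988, and 16 of the 21 were at most 0.05 (76.2%, against 60.8% of all peaks).

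**Figure D2:**
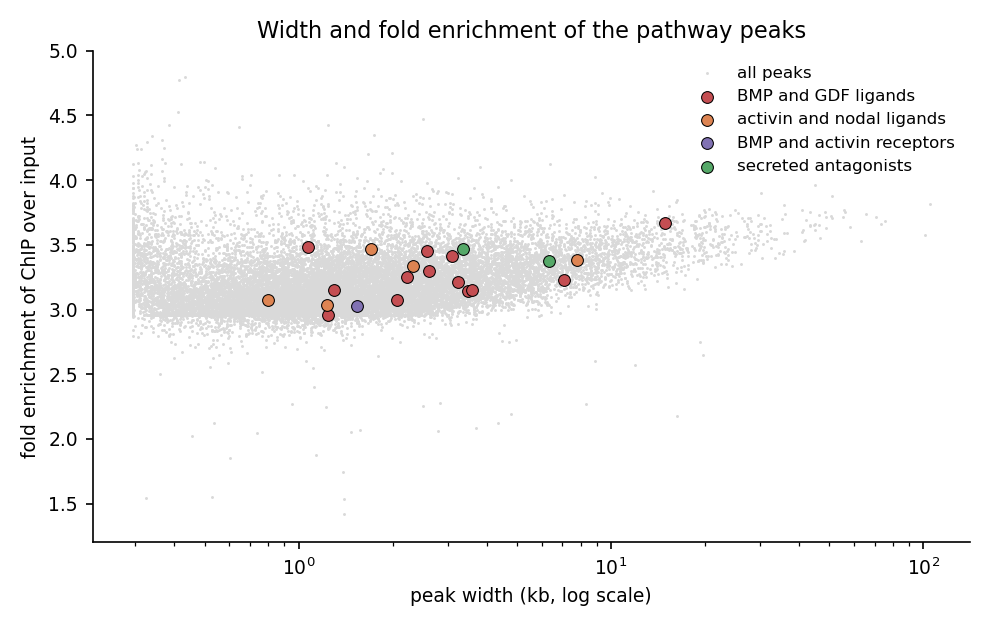
Width (kb, log scale) and fold enrichment of the 21 peaks at pathway genes, coloured by class, over all 19359 peaks in grey. The Gdf6 peak of 14.9 kb at 3.67-fold is the widest and most enriched of the 21, and all 21 lie within the cloud of all peaks.

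Among the BMP and GDF ligands, Gdf6 was the most heavily covered. GDF6 is a growth factor of joints and skull. The gene (ENSMUSG00000051279, chromosome 4, 9844373 to 9862345, plus strand) held a peak of 14.9 kb (9844703 to 9859555, 3.67-fold, q = 0.00439). This peak was wider than 98.4% and more enriched than 97.0% of all peaks. It began 330 bp inside the 5′ end, and the next peak upstream, of 2.06 kb, ended 919 bp before that end. The start of Gdf6 thus lay in a stretch of 1.25 kb without a peak. A peak of 2.23 kb covered the 3′ end, and a peak of 3497 bp lay 2.77 kb downstream. Peaks covered 88.8% of the gene. With those farther out, 9 peaks stood within 20 kb of Gdf6, over a stretch of 48.0 kb (9825951 to 9873997), of which 30.7 kb was under peaks.

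Gdf7, a ligand known from the roof plate of the spinal cord and from tendon, had 3 peaks. A peak of 2.58 kb inside the gene (8299074 to 8301657, 3.45-fold, q = 0.00955) covered most of its body, and 64.3% of the gene on chromosome 12 (ENSMUSG00000037660, 8297935 to 8301954, minus strand) was under peaks. A peak of 3.09 kb upstream (8302975 to 8306067, 3.41-fold, q = 0.0133) began 1021 bp before the 5′ end, and the inner peak lay 297 bp within it, so the start stood in an uncovered stretch of 1.32 kb. The whole of the promoter shown above fell into that stretch. The third peak, of 3599 bp and 3.15-fold, began 39 bp beyond the 3′ end. By the RefSeq gene table this downstream peak lay within the neighbouring gene Ldah, and so did part of the inner one.

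Bmp4, a ligand of early mesoderm, limb and growth plate, had 1 peak of 7.09 kb (46390010 to 46397102, 3.23-fold, q = 0.0317). It covered the 5′ end of the gene (ENSMUSG00000021835, chromosome 14, 46383521 to 46390669, minus strand) and ran from -6433 to 659 bp relative to it, so that 9.23% of the gene was under it. Bmp3, which is known to dampen osteogenic BMP activity, also had a peak across the start of the gene. Its peak of 3.23 kb (98851323 to 98854552, 3.22-fold, q = 0.0332) reached 112 bp past the 5′ end (ENSMUSG00000029335, chromosome 5, 98854440 to 98880960, plus strand). A second peak of 1.07 kb inside Bmp3 was more enriched (3.49-fold, q = 0.00945). In RefSeq the first one also lay over the gene model Gm34563. Gdf5, a marker of developing joints, had a bare gene body. Its 2 peaks of 1.25 kb (2.96-fold, q = 0.0988) and 1.29 kb (3.15-fold, q = 0.0363) lay 1.44 and 3.88 kb upstream of the gene (ENSMUSG00000038259, chromosome 2, 155941024 to 155945367, minus strand). The first of them stood at 9.86 fragments, the lowest pileup in the whole list, and at a mean q-value above 0.05.

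**Figure D3:**
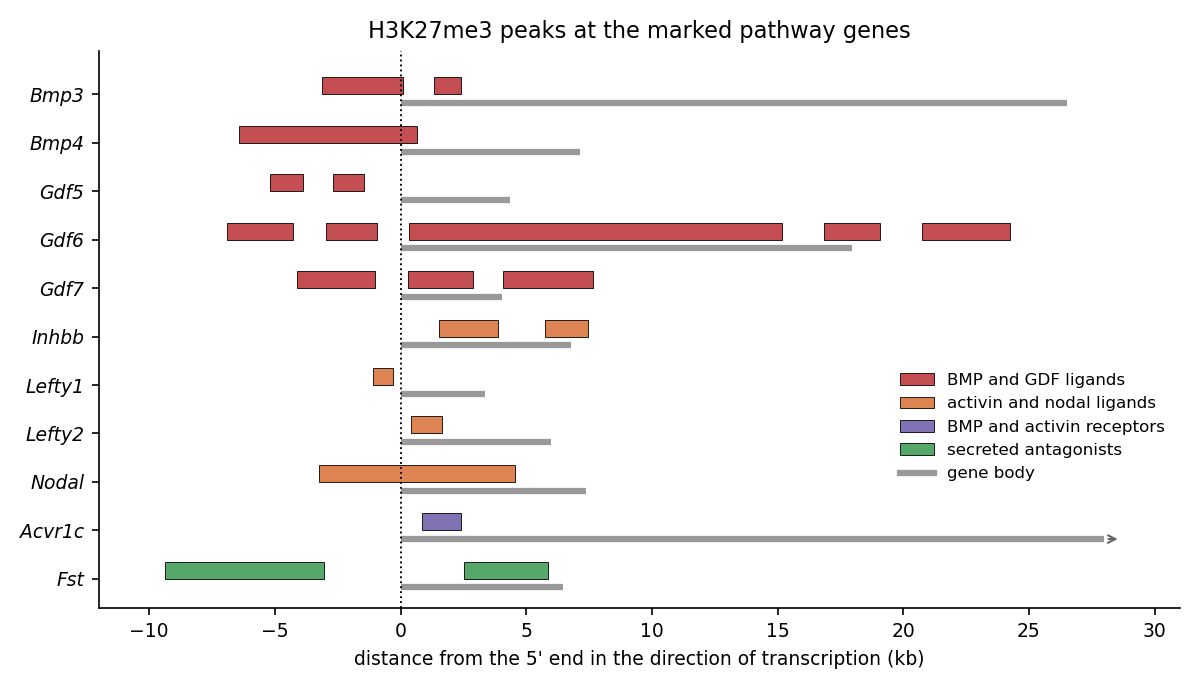
Peaks (coloured bars) at the 11 marked genes by distance from the 5′ end of the gene in the direction of transcription (kb), with the gene body in grey, and an arrow where the gene runs past the axis. Peaks cross the 5′ end of Bmp3, Bmp4 and Nodal, and peaks flank it on both sides at Gdf6, Gdf7 and Fst.

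The other 14 genes of the class were unmarked. Their closest peaks lay 6.89 kb from Gdf15, a stress-induced ligand, and 9.87 kb from Bmp10, a ligand of the heart. The peak beside Gdf15 was the one the authors' annotation joined to Lrrc25. At 8 of the 14 the nearest peak was 26.7 to 55.2 kb away, namely Amh, Gdf2, Gdf9, Gdf11, Gdf10, Bmp2, Bmp7 and Gdf3. Several of these peaks belonged to neighbours in the authors' annotation, as with the 4 peaks at Lingo3 near Amh and the peak of 7.57 kb at Sowaha near Gdf9. Gdf2 and Gdf10, which are neighbours on chromosome 14, had the same 2 peaks at Zfp488 as their nearest ones. Bmp6, Mstn, Bmp5 and Bmp15 were farthest away, at 163, 338, 419 and 1123 kb. Bmp2, Bmp6 and Bmp7, which are BMP ligands of cartilage and bone, were thus unmarked. The skeletal ligands Bmp3, Bmp4, Gdf5 and Gdf6 were marked, and Bmp10, the ligand of the heart, was not.

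In the activin and nodal class, Nodal carried the widest peak. NODAL patterns the early embryo and its left-right axis. The peak of 7.79 kb (61414733 to 61422526, 3.38-fold, q = 0.0111) covered the 5′ end and 61.8% of the gene (ENSMUSG00000037171, chromosome 10, 61417973 to 61425338, plus strand). Inhbb, the gene of the activin B subunit, had a peak of 2.32 kb inside (119418391 to 119420713, 3.34-fold, q = 0.0189) and a peak of 1.70 kb over the 3′ end (119414788 to 119416490, 3.47-fold, q = 0.0125). Together they covered 49.4% of the gene (ENSMUSG00000037035, chromosome 1, 119415466 to 119422248, minus strand), and the 5′ end lay 1535 bp from the inner peak.

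Lefty1 and Lefty2 encode inhibitors of nodal signalling and lie 35.9 kb apart on chromosome 1. Their peaks were among the weakest of the set. At Lefty2 (ENSMUSG00000066652, 180893109 to 180899103, plus strand) the peak of 1.23 kb lay inside the gene, 410 bp past the 5′ end (3.04-fold, q = 0.0545). At Lefty1 (ENSMUSG00000038793, 180935023 to 180938400, plus strand) the peak of 800 bp lay 291 bp before the gene (3.07-fold, q = 0.0639), over the RefSeq gene model Gm39715. Both peaks had q-values above 0.05, so 2 of 6 genes of this class stayed marked under that limit, and 0 under a limit of 0.01. Over all protein-coding genes these limits left 16.4% and 5.91% marked. Inha, which encodes the inhibin α subunit, lay 51.2 kb from a peak. Inhba, which encodes the activin A subunit, lay 1478 kb from one, the largest distance among the 52 genes. Within 50 kb, Inhba had 0 peaks and Inhbb had 3, of which 2 were joined to it.

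Of the 12 receptor genes only Acvr1c, which encodes the type I receptor ALK7 for nodal and some activins, was marked. Its peak of 1.54 kb (58355487 to 58357030, 3.02-fold) lay 865 bp inside the 5′ end of a gene of 90.4 kb (ENSMUSG00000026834, chromosome 2, 58267454 to 58357895, minus strand) and covered 1.71% of it. The q-value was 0.0778. A limit of 0.05 on the mean q-value therefore left 0 of 12 receptor genes marked, against 16.4% of all protein-coding genes. The BMP type I receptor genes Bmpr1a and Bmpr1b lay 110 and 292 kb from the nearest peak, and the type II receptor gene Bmpr2 lay 82.9 kb away. Acvrl1, Acvr2b, Acvr1, Acvr1b and Acvr2a lay at 72.3, 88.9, 89.4, 118 and 881 kb.

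The genes of TGF-β itself were bare. Tgfb1 had its nearest peak 11.3 kb away, at Tmem91 in the authors' annotation, Tgfb2 at 46.2 kb and Tgfb3 at 114 kb. Among the receptors, Tgfbr3, which encodes the co-receptor betaglycan, lay 44.1 kb from a peak, one joined to Brdt. Tgfbr1 (chromosome 4) lay 151 kb away and Tgfbr2 (chromosome 9) 927 kb away. These distances are from the gene ends in the RefSeq table, and the lowest pileup called was 9.86 fragments, so a weaker mark was not detectable at this depth.

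The Smad genes were bare as well. Smad5 and Smad2 lay 7.64 and 14.6 kb from a peak, and the other six lay 106 to 406 kb away. The peak near Smad5 was 4.17 kb wide (3.15-fold, q = 0.0414), lay over the RefSeq gene model Gm45623 and had no gene in the authors' annotation. Within 20 kb of the gene ends, 16 of the 52 pathway genes had a peak (30.8%, against 32.9% of all genes), the added ones being Gdf15, Smad5, Bmp10, Tgfb1 and Smad2. The inhibitory Smads, Smad6 and Smad7, lay 244 and 371 kb from a peak. Smad4 lay 261 kb away.

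**Figure D4:**
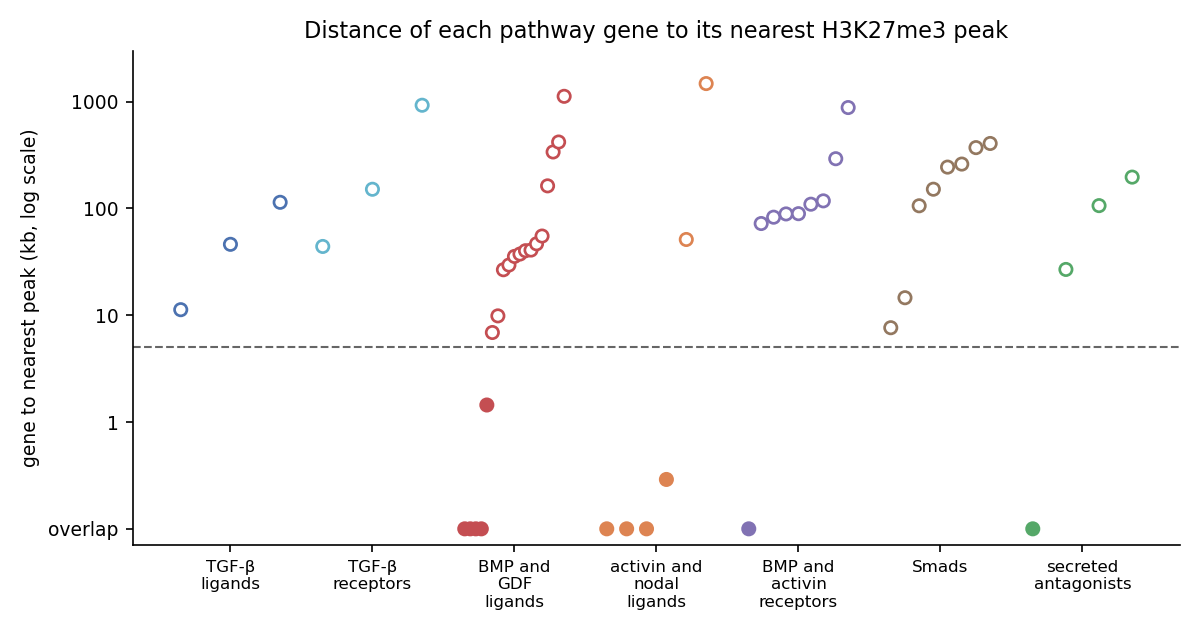
Distance from each of the 52 genes to the nearest H3K27me3 peak (kb, log scale, with overlap drawn at the bottom), by class. Filled points are marked genes, open points are not, and the dashed line is the limit of 5 kb. Between Gdf5 at 1.44 kb and Gdf15 at 6.89 kb there was no gene.

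Among the secreted antagonists, Fst was marked and Nog, Chrd and Grem1 were not. Follistatin, the product of Fst, binds and inhibits activins. A peak of 3.35 kb (114452861 to 114456211, 3.47-fold, q = 0.00910) covered 51.8% of the gene (ENSMUSG00000021765, chromosome 13, 114452263 to 114458730, minus strand), and a peak of 6.32 kb (114461762 to 114468083, 3.38-fold, q = 0.0141) lay 3.03 kb upstream, over the RefSeq gene model Gm41074. The 5′ end stood in an uncovered stretch of 5.55 kb between them. With the peaks farther upstream, 5 peaks lay within 20 kb and 7 within 50 kb of Fst, which put 14.5 kb under peaks in that window. The next 2 upstream also lay over Gm41074, and none of those beyond the first pair was joined to Fst in the authors' annotation. Chrd, Grem1 and Nog, the genes of the BMP antagonists chordin, gremlin 1 and noggin, lay 26.9, 106 and 197 kb from the nearest peak.

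The distance limit of 5 kb did not cut through a dense group of genes. The marked genes farthest from their peak were Lefty1 at 291 bp and Gdf5 at 1.44 kb, and the unmarked genes nearest to one were Gdf15, Smad5 and Bmp10 at 6.89, 7.64 and 9.87 kb. The 41 unmarked genes had a median distance of 89.4 kb, against 117 kb over all 17351 unmarked protein-coding genes. Of the 41, 5 had a peak within 20 kb and 20 were more than 100 kb from one.

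The position of the peaks relative to the gene was described over the 21 pairs of a peak and a gene. Of these, 7 lay inside the gene, 7 upstream of it, 3 over the 5′ end, 2 over the 3′ end and 2 downstream. The share upstream was 33.3%, against 21.0% over all pairs of the list, and the share inside was 33.3%, against 54.2%. Of the 21 pairs, Gdf6 gave 5 and Gdf7 gave 3. The marked pathway genes had a median length of 6.79 kb, against 22.8 kb over all marked protein-coding genes. The shares were not adjusted for length. A peak over the 5′ end was present at 3 of the 11 marked genes (27.3%), against 21.5% of all marked protein-coding genes. At 7 of the other eight the nearest peak edge lay within 2 kb of the 5′ end, and at Fst it lay at 2519 bp. The matching share over all marked genes was not computed. Short genes and a reach of 5 kb also limit how far from the 5′ end a joined peak can lie.

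The marked genes were mostly short. Their median length was 6.79 kb (3.38 to 90.4 kb), against 39.4 kb (1.92 to 332 kb) for the unmarked genes of the pathway. Over all protein-coding genes the order was the other way round, with 22.8 kb for marked and 16.1 kb for unmarked genes. Of the 19 pathway genes under 10 kb, 8 were marked (42.1%, 23.1 to 63.7%), against 17.1% of all genes of that length. Of the 18 of 50 kb or more 1 was marked (5.56%, 0.988 to 25.8%), against 29.0%. In the range of 10 to 50 kb it was 2 of 15 (13.3%, 3.74 to 37.9%), against 19.4%. Role and length went together, since 16 of the 19 short genes were ligands while the receptors had a median length of 89.8 kb and the Smads of 65.0 kb, so that they cannot be told apart here. Among ligands alone, 7 of 16 under 10 kb were marked and 2 of 12 longer ones.

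Promoter CpG content was available for 34 of the 52 genes (65.4%). A promoter was missing from the table for 6 of the 11 marked genes (Bmp3, Gdf5, Gdf6, Lefty1, Lefty2 and Fst) and for 12 of the 41 unmarked ones, so a comparison of CpG content between marked and unmarked genes is void, and single values are given. At the 5 genes with several promoters in the table, the most CpG-rich one was used, which at Acvr1c held 39 CpG against 2 in the other, and at Tgfbr1 34 against 3. The 5 marked genes with a value had 5 (Nodal), 12 (Bmp4), 23 (Inhbb), 26 (Gdf7) and 39 CpG (Acvr1c) in 300 bases. The promoters of Nodal and Bmp4 lay under a peak, and the other three did not. The nearest peak was 248 bp from the promoter of Gdf7, 679 bp from that of Acvr1c and 1486 bp from that of Inhbb.

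**Figure D5:**
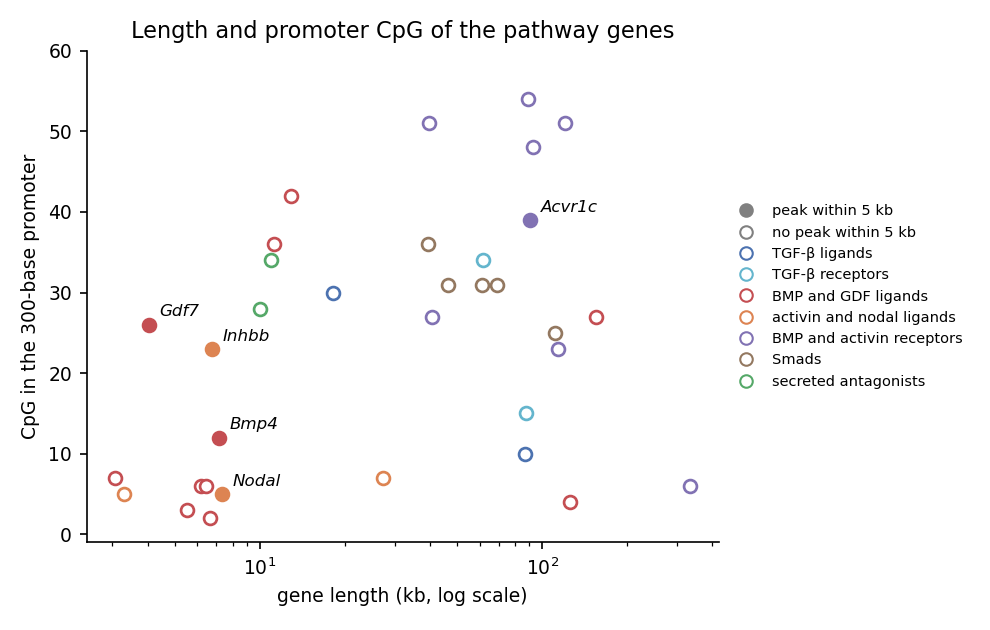
Gene length (kb, log scale) and number of CpG in the 300-base promoter for the 34 pathway genes with a promoter in the table, coloured by class. Filled points are the 5 marked genes with a promoter there, at 5 to 39 CpG, and 4 of them are ligand genes under 10 kb, while the 6 marked genes without a promoter are not drawn.

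The length under peaks at marked ligands was set beside that at marked Wnt and Fgf genes. The median summed peak length was 4.30 kb over the 9 marked pathway ligands, 15.4 kb over the 16 marked Wnt genes and 7.17 kb over the 14 marked Fgf genes. Over all marked protein-coding genes it was 3.75 kb. The ranges overlapped, and the differences were not tested. The pathway ligands ran from 800 bp at Lefty1 to 25.3 kb at Gdf6, the Wnt genes from 0.474 kb at Wnt4 to 41.8 kb at Wnt6, and the Fgf genes from 2.15 kb at Fgf14 to 18.8 kb at Fgf3. Within the Wnt family 2 peaks were each joined to a pair of neighbours, Wnt6 with Wnt10a and Wnt1 with Wnt10b, and count for both genes in these sums. Median gene length was 6.79 kb over 25 ligands other than TGF-β, 22.9 kb over 19 Wnt genes and 10.7 kb over 22 Fgf genes. The sums were not adjusted for gene length. With the q-value limit of 0.01, 3 of the 25 ligands other than TGF-β (12.0%), 10 of the 19 Wnt genes (52.6%) and 7 of the 22 Fgf genes (31.8%) stayed marked, against 5.91% of all protein-coding genes.

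Of 46 other genes of the pathway 10 were marked (21.7%, 12.3 to 35.6%), close to the 20.7% of all protein-coding genes. They were 4 of 5 further ligand genes (Bmp8a, Bmp8b, Inhbc and Inhbe), 2 of 7 receptors and co-receptors (Tdgf1 and Cfc1), 2 of 12 further antagonists (Sost and Chrdl2) and 2 of 10 genes of matrix binding and ligand processing (Ltbp2 and Tll2). The 7 intracellular regulators, such as Ski, Smurf1 and Tgif1, had no marked gene. The further genes were named after their values were seen, apart from the 3 whose 5′ end lay under a peak. Sost, whose product sclerostin is an osteocyte antagonist, lay wholly under a peak of 17.6 kb (3.46-fold, q = 0.0119) that was also joined to Dusp3. Tdgf1 and Cfc1 encode the nodal co-receptors Cripto and Cryptic. Their 5′ ends lay under peaks of 1.75 kb (3.31-fold, q = 0.0205) and 5.54 kb (3.21-fold, q = 0.0312), which were also joined to Lrrc2 and Prss40. Inhbc and Inhbe shared 1 peak of 0.968 kb with a q-value of 0.0988.

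The cell type was checked on 6 chondrocyte genes (Col2a1, Acan, Sox9, Col9a1, Matn1 and Comp), of which 0 had a peak, and on 5 genes of other cells, of which 3 had one, against 20.7% of all protein-coding genes. A count of 0 of 6 allows a share of up to 39.0%. Myod1 and Pax7 of muscle each had a peak over the 5′ end. The peak at Ptprc of blood cells was 947 bp wide, had a q-value of 0.0890 and covered 0.842% of the gene, and the endothelial genes Pecam1 and Cdh5 had none.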

How the data were processed

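One H3K27me3 ChIP library and 1 input library of primary rib chondrocytes were sequenced. The submitters' processing notes name CASAVA 1.8.4, Bowtie2, MACS2 and mm10. Per the file headers, the authors called broad peaks with MACS 2.1.0.20140616 on trimmed reads without duplicates, ChIP against input, with 17237574 and 17004082 filtered tags and a stated q-value cutoff of 0.05. The deposited pileup is a coverage signal. The fold enrichment is a ratio of pileup to input background with 1 added to both by the authors' caller. The authors deposited −log10 q-values averaged over each peak. Of all peaks, 39.2% had a mean above 0.05, up to 0.0991, and the cutoff used to link broad regions was not given in the sources used here. A second deposited table lists Ensembl genes within 5 kb of each peak, made by a tool not given in the sources used here. Positions, fold enrichment and q-values of all 19359 peaks were equal in the 2 tables.

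Each gene's peaks were taken from this annotation by symbol. All 52 symbols were found in the RefSeq gene table of GRCm38.p6, the build of mm10, which gave gene positions, lengths and distances. That table holds no exons, so a peak is placed only relative to gene ends. The background was 21887 protein-coding genes. With 1 library per group no test was run. Shares have 95% Wilson intervals, which treat genes as independent. The genes and lists were chosen with earlier results of these data known. Every one of the 52 was to be named, and further pathway genes where a peak covered the 5′ end. The list of pathway target genes, counted in the total of further genes, is not reported here. Promoters were printed for genes with the widest peak over the 5′ end in their class, for 2 receptor genes the study examined, and for Gdf7. Alternatives were limits on q-value, fold enrichment and width, and other rules for joining peaks to genes. The distance functions were tested on made-up intervals with known answers. Python 3.11.15, pandas 2.3.3 and statsmodels 0.14.6 were used.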

Additional observations from a re-analysis of the deposited data

How the results depend on the processing

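The alternatives gave 109 recomputed values over 13 results, of which 82 stayed within 1.5 times the value reported and 27 did not. No paired analysis was possible because there was 1 ChIP and 1 input library. A limit that leaves fewer peaks cannot add genes. The TGF-β ligands, TGF-β receptors and Smads, at 0, therefore could not move under such a limit. Their values there are counted among the 82 without being a test. With a q-value limit of 0.05 the marked activin and nodal ligands fell from 4 to 2 and the BMP and activin receptors from 1 to 0. With a limit of 0.01, 4 of the 52 genes were marked (Bmp3, Fst, Gdf6 and Gdf7), with 3 BMP and GDF ligands, 0 activin and nodal ligands, 0 BMP and activin receptors, 2 other pathway genes and 0 genes with the 5′ end under a peak. Under a fold enrichment of at least 3.5, 1 gene was marked (Gdf6, 1 BMP and GDF ligand), with 0 activin and nodal ligands, 0 receptors, 0 antagonists, 1 other pathway gene and 0 covered 5′ ends, and the median width of 14.9 kb is that of 1 peak. Under cover of the 5′ end, 3 genes were marked (2 BMP and GDF ligands and 1 activin or nodal ligand), with 0 receptors, 0 antagonists and 3 other pathway genes. Within 20 kb of the gene, 16 of the 52 were marked (against 32.9% of all genes), with 1 TGF-β ligand (Tgfb1) and 2 Smads (Smad2 and Smad5). With Lefty1, Lefty2 and Inha counted as antagonists, 2 activin and nodal ligands and 3 antagonists were marked. Joining peaks within 5 kb into 12 domains moved the median width to 6.86 kb, against 2.06 kb over all domains. The RefSeq positions gave the same 11 genes within 5 kb as the authors' annotation.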
